A study of Mus musculus with 10 samples.

Results

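Glycolysis and the citric acid cycle are represented here by 38 genes, listed by name from general knowledge of the pathways: 2 glucose transporters, 7 enzymes of glucose phosphorylation and upper glycolysis, 10 enzymes of lower glycolysis, 4 genes of lactate production and export, 5 genes of the pyruvate dehydrogenase complex and its kinases and 10 enzymes of the citric acid cycle. All 38 were matched through RefSeq accessions to 56 of the 55681 probes on the array, 28 genes by 1 probe and 10 by several, out of 20972 genes matched on the whole array. Mouse E14 embryonic stem (ES) cells, an established line grown with Lif on gelatin, received plasmids for CRISPR activation, in which a catalytically dead Cas9 fused to the VP160 activation domain (dCas9-VP160) is brought to a promoter by guide RNAs (gRNAs). A pool of 5 gRNA plasmids targeted the promoter of the lncRNA *Hottip* (4 arrays) or that of the neighbouring gene *Hoxa13* (3 arrays), and 3 arrays held the control. The sources describe the control as control gRNAs, as non-targeting gRNAs with dCas9 alone, and as dCas9 without VP160, so the control may differ in VP160 besides the gRNAs. All cells were selected in 2 μg/ml puromycin for 24 h, starting 24 h after transfection, and RNA was collected at 48 h. The RNA was labelled with Cy3 and each sample was hybridised alone to an Agilent mouse array.

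The labels were checked against the targeted genes first. The 2 *Hoxa13* probes were well above background on 4 of 4 arrays labelled *Hottip* gRNAs, where the brighter one lay between 3.17 and 4.16, but on 0 of 3 arrays labelled *Hoxa13* gRNAs and 0 of 3 control arrays, where it lay from −4.80 to −3.68 and from −5.84 to −3.46. These are levels, meaning log2 of the scanner's processed signal minus log2 of the 75th percentile of that array's non-control spots, so that 0 is the 75th percentile and each unit is a doubling. The level of its own target thus did not bear out the *Hoxa13* gRNA label, and those arrays are called the arrays labelled *Hoxa13* gRNAs below. *Hottip* itself was not analysed here.

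In glycolysis, glucose enters the cell through facilitative transporters, is phosphorylated by hexokinase, rearranged and phosphorylated again, and split by aldolase into 3-carbon sugars that are oxidised to pyruvate. Pyruvate is either reduced to lactate by lactate dehydrogenase and exported, or converted to acetyl-CoA by the pyruvate dehydrogenase complex and oxidised in the citric acid cycle. Many steps have several isoenzymes encoded by separate genes with their own tissue distribution. Pluripotent stem cells are known for a high rate of glycolysis together with lactate production, and mouse ES cells kept in Lif are known to use both glycolysis and mitochondrial oxidation.

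The 75th percentile of the processed signal, by which each array was scaled, ranged from 586 to 2570 intensity units. It was 586, 849 and 1086 on the arrays labelled *Hoxa13* gRNAs and 2380, 1880 and 1096 in the control, without overlap. On each array 31.9 to 41.4% of probes were well above background. Replicates 1 and 2 of the arrays labelled *Hoxa13* gRNAs were on 1 slide and the other 8 arrays on another, so that slide and group overlap in part. The scanner software multiplied the signal by a smooth correction for a trend over the array surface on every array except *Hottip* gRNA replicates 3 and 4. The slope of the spike-in RNAs was 1.16 on replicate 1 of the arrays labelled *Hoxa13* gRNAs and 0.900 to 0.982 on the others. Spots marked as outliers by the software were left out, which removed 10 of the 38 genes on control replicate 3, 7 on *Hottip* gRNA replicate 1 and 0 to 3 on each other array. Markers of ES cells (*Pou5f1*, *Nanog*, *Sox2*, *Esrrb*, *Zfp42*, *Klf4* and *Tdgf1*) were well above background on all arrays for 7 of 7 genes. Their summed level, in multiples of the 75th percentile, was 101 to 282 in the control, 120 to 212 with *Hottip* gRNAs and 241 to 327 on the arrays labelled *Hoxa13* gRNAs. Of the 5 trophoblast markers, *Hand1* and *Elf5* were well above background on 0 arrays, and the summed level was 6.43 to 8.52, 9.55 to 30.7 and 7.56 to 26.6 in the same order. The trophoblast transcription factor *Cdx2* was detected on 4 of 4 arrays with *Hottip* gRNAs, 1 of 3 labelled *Hoxa13* gRNAs and 0 of 3 control arrays, and rose by 4.06 log2 units over the control with *Hottip* gRNAs (adjusted p 0.00105 in limma). The keratins *Krt8* and *Krt18* were detected on 10 arrays and differed there by 1.72 and 0.84 (adjusted p 0.392 and 0.715). The 5 endoderm markers summed to 2.64 to 3.12 in the control, 4.81 to 8.73 with *Hottip* gRNAs and 2.34 to 2.73 on the arrays labelled *Hoxa13* gRNAs, and the 4 mesoderm markers to 0.723 to 0.923, 1.20 to 1.99 and 0.855 to 1.57. The *Hottip* gRNA sums of the trophoblast, endoderm and mesoderm lists did not overlap with the control. Those of the 3 neural markers (1.26 to 7.7 against 2.21 to 13.6) and the 4 fibroblast markers (0.571 to 0.748 against 0.417 to 2.35) did overlap. The neural *Sox1*, *Pax6* and *Nes* differed by −1.76, −0.69 and −0.2 with *Hottip* gRNAs (adjusted p 0.121 for *Sox1* in limma), with *Nes* detected on 0 arrays. The endoderm sum was mainly *Gata6* (1.66 over the control with *Hottip* gRNAs, adjusted p 0.0929 in limma). *Gata4*, *Sox17*, *Sox7* and *Foxa2* differed there by 0.31 to 0.58. Of the mesoderm list *Eomes* (0.88, adjusted p 0.553) was detected on 10 arrays, *T* on 1, and *Mixl1* and *Mesp1* on 0. The part of these shifts in the results below was not tested, and in bulk RNA fewer cells of a type and less RNA per cell cannot be told apart.

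ES cells expressed most isoenzymes of the pathway together rather than 1 at each step. Of the 38 genes, 33 were well above background on all 10 arrays, 36 on at least the 3 arrays needed for the test, and only *Slc16a1* on 0. Detection is compared here rather than level, because probes of different genes bind with different strength. The glucose transporters *Slc2a1* (Glut1) and *Slc2a3* (Glut3) were both detected on 10 of 10 arrays. So were the hexokinases *Hk1* and *Hk2*, which trap glucose in the cell, and all 3 subunit genes of phosphofructokinase (*Pfkl*, *Pfkm* and *Pfkp*), the committed step of glycolysis. The liver transporter gene *Slc2a2* and *Hk3*, which are outside the 38 genes, were detected on 0 arrays. The transporter gene *Slc2a4*, also outside them, was detected on 10.

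At the aldolase step *Aldoa* and *Aldoc* were both detected on 10 arrays. *Gapdh*, which oxidises glyceraldehyde 3-phosphate, was detected on 10 arrays and its sperm counterpart *Gapdhs* on 0. Among the enolases, which form phosphoenolpyruvate, *Eno1* and the muscle isoenzyme gene *Eno3* were detected on 10 arrays, whereas the neuronal *Eno2* was detected on 4, of which 2 were control arrays. Phosphoglycerate mutase was represented by *Pgam1* on 10 arrays and the muscle gene *Pgam2* on 8. Pyruvate kinase was represented by *Pkm* on 10 arrays and by the liver and red cell gene *Pklr* on 1. Lactate dehydrogenase subunit genes *Ldha* and *Ldhb* were detected on 10 arrays and the testis gene *Ldhc* on 3. Among the monocarboxylate carriers, which move lactate across the membrane, *Slc16a3* (Mct4) and *Slc16a7* were detected on 10 arrays, and *Slc16a1* (Mct1) and *Slc16a8* on 0. *Slc16a1* was matched by a probe whose level ranged from −5.67 to −3.74, and a single probe not well above background does not show that the transcript is absent.

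**Figure D1:**
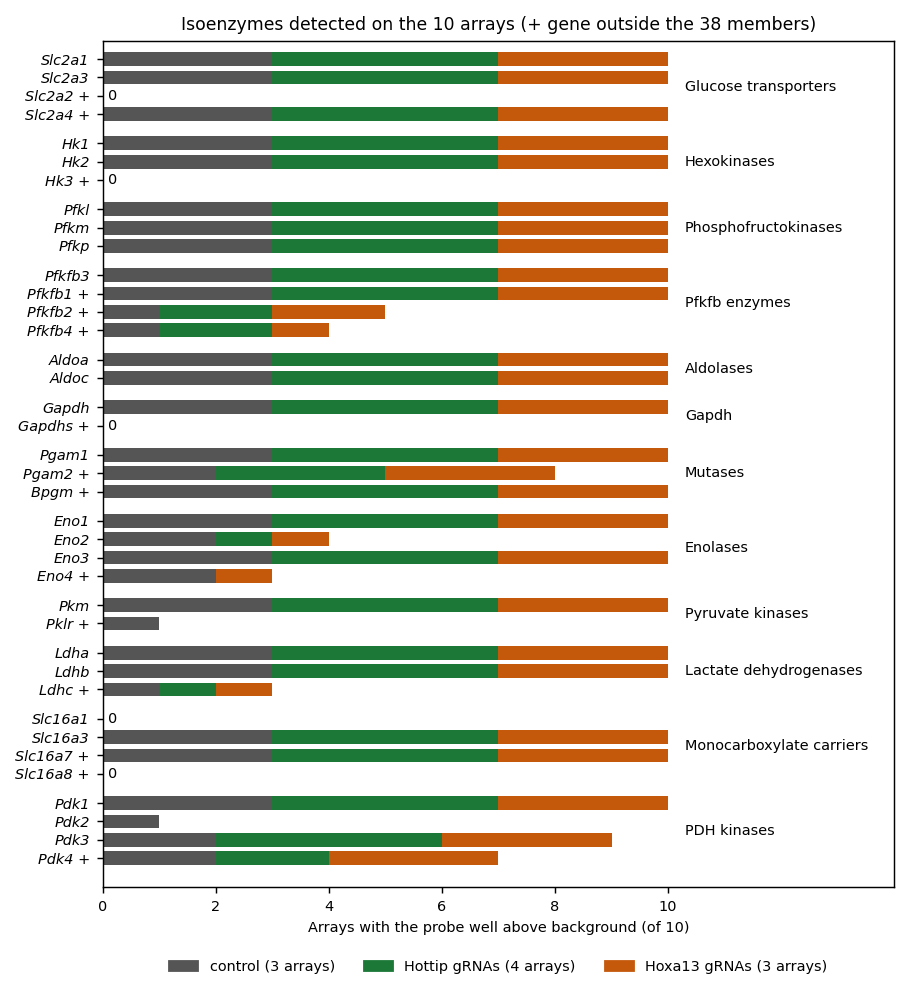
Number of arrays, of 10, on which the brightest probe of each isoenzyme gene was well above background, split by colour into control (3 arrays), *Hottip* gRNA (4) and arrays labelled *Hoxa13* gRNAs (3); a plus sign marks genes outside the 38. Most steps have 2 or more isoenzyme genes at 10 of 10, while *Slc2a2*, *Hk3*, *Gapdhs*, *Slc16a1* and *Slc16a8* are at 0.

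The pyruvate dehydrogenase kinases, which switch off the pyruvate dehydrogenase complex, differed in detection: *Pdk1* was found on 10 arrays, *Pdk3* on 9, *Pdk4* on 7 and *Pdk2* on 1. All 10 citric acid cycle genes were detected on 10 arrays apart from *Mdh1*, the cytosolic malate dehydrogenase, which was detected on 9. *Mdh1* had a level of −4.18 on replicate 1 of the arrays labelled *Hoxa13* gRNAs, where its spot was not well above background, against 3.72 and 3.91 on replicates 2 and 3. In the authors' log2 values that array also stood apart, at 5.12 against 13.85 and 14.36, so *Mdh1* differences involving this group rest on 1 array. A further 34 genes of the same pathways that are not among the 38 were detected on all arrays in 20 cases and on none in 5.

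Promoter sequences are shown for a few of these genes because the comparisons below treat them as a group. RefSeq windows (build GRCm38.p6) from 250 bases before to 50 bases after the annotated start, 300 bases in all, were found for 36 of the 38 genes, with several windows for 11. The letters ACGTG on either strand, the core of the motif bound by hypoxia-inducible factors, occurred in the first window of 16 of 36 genes (44.4%), against 19.6% of all 32851 windows. The E-box CACGTG, which holds ACGTG on both strands, occurred in 4 of 36 (11.1%) against 7.15%. The windows of these genes also had a median GC content of 62% against 52.7% over all windows, and a median observed-to-expected CpG ratio of 0.71 against 0.384. The lactate genes *Ldha* and *Slc16a1*, the phosphoglycerate kinase gene *Pgk1* and, with none of these letters, the succinyl-CoA ligase gene *Suclg1* are printed below with matches in capitals, each on the plus strand of chr7:46845554-46845853, chr3:104638414-104638713, chrX:106186850-106187149 and chr6:73248255-73248554.
*Ldha*: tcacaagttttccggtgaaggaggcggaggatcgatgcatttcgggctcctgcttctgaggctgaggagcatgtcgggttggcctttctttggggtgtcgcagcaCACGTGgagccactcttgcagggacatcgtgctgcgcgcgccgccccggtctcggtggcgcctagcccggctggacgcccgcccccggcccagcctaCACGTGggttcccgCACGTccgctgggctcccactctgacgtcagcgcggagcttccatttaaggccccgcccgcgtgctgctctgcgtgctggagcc
*Slc16a1*: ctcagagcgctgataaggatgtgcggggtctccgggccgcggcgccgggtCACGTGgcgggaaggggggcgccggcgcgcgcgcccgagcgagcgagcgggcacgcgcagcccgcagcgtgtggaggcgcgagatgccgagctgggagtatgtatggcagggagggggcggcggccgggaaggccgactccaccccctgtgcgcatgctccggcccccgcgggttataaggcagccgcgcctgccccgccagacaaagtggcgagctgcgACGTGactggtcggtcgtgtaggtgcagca
*Pgk1*: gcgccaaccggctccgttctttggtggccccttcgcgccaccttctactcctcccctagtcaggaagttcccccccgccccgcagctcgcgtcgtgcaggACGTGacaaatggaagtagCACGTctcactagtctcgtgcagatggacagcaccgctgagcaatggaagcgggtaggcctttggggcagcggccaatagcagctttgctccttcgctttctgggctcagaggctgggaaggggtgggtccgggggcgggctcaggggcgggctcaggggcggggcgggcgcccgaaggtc
*Suclg1*: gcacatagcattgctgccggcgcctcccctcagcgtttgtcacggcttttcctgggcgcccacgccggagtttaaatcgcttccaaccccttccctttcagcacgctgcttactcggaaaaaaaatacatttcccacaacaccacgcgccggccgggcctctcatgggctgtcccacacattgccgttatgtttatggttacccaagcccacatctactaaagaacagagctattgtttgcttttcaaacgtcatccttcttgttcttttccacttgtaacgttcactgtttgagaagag
The *Ldha* window held 5 matches to ACGTG, of which 4 lie in its 2 copies of CACGTG, the *Slc16a1* window 3 and the *Pgk1* window 2. A match describes letters only. *Ldha* was bright on every array and no array had the *Slc16a1* probe well above background, although both windows hold such letters.

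The first comparison set the arrays labelled *Hoxa13* gRNAs against the control. In scaled signal the largest differences above the control at probes without saturated spots were in the reduction of pyruvate to lactate and the citric acid cycle: *Ldha*, *Suclg1*, *Mdh2* and *Sdhb* had means 1.34 to 1.57 log2 units above the control. None passed the test, with 0 of 36 tested genes at an adjusted p under 0.05 (limma, Benjamini-Hochberg over 22830 probes, of which 0.175% were called) and a smallest adjusted p of 0.447. At an unadjusted p under 0.05 there were 9 genes above the control and 0 below, against 7.98% and 2.98% of all tested probes. The median difference over the 38 genes was 0.57, against 0.19 over all tested probes, and 27 of 38 genes were above 0 against 60.2% of probes. In the authors' quantile-normalized log2 values of the same arrays the median was −0.11 against −0.04, with 14 genes above 0 and 24 below, where 47.6% of probes were above 0. There 0 genes were called (0.109% of probes), 1 was above and 2 were below the control at an unadjusted p under 0.05 (2.58% and 4.81% of probes), and the smallest adjusted p was 0.56.

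By role, the scaled medians for the arrays labelled *Hoxa13* gRNAs minus the control were 0.55 for glucose transport, −0.09 for upper glycolysis, 0.62 for lower glycolysis, 0.70 for lactate genes, −0.07 for pyruvate dehydrogenase and 0.77 for the citric acid cycle. The same medians in the authors' values were −0.58, −0.22, 0.04, −0.07, −0.38 and −0.10. Upper glycolysis and pyruvate dehydrogenase were below 0 on both scales, and the medians of glucose transport, lactate and citric acid cycle genes had opposite signs on the 2 scales. Beyond the genes given below, differences ran from −1.88 for *Mdh1* to 1.23 for *Pdk3* in scaled signal (adjusted p 0.64 and 0.6 in limma), the first resting on the low array named above and the second on control replicate 3, where *Pdk3* read −2.78 against 1.76 and 1.32 on the other control arrays.

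*Gpi1*, which converts glucose 6-phosphate to fructose 6-phosphate, had levels of 5.97, 5.52 and 5.35 on the arrays labelled *Hoxa13* gRNAs, 5.08, 5.35, 4.86 and 4.20 with *Hottip* gRNAs, and 4.27 and 4.51 on control replicates 1 and 2, its spot on replicate 3 being left out. All 3 arrays labelled *Hoxa13* gRNAs lay above both control arrays. The difference was 1.22 (SE 0.459, adjusted p 0.447), 0.29 in the authors' values and −0.05 after quantile normalization of the processed signal. *Pfkp*, the platelet-type phosphofructokinase subunit, read 3.14, 2.74 and 2.41 on the arrays labelled *Hoxa13* gRNAs, 1.99, 2.54, 2.67 and 2.57 with *Hottip* gRNAs, and 2.01 and 1.96 on control replicates 1 and 2. The arrays labelled *Hoxa13* gRNAs were above both control arrays, by 0.78 (SE 0.419, adjusted p 0.482). In the authors' values the difference was 0.63 and the groups overlapped (12.14 on the lowest array labelled *Hoxa13* gRNAs, 12.33 on the highest control array). *Pfkp* stayed above 0 under all 7 ways of scaling the arrays. *Slc2a1*, the transporter that brings in glucose, read 5.44, 5.05 and 4.76 against 3.53, 3.95 and 5.16 in the control and 4.58, 4.78, 4.79 and 4.09 with *Hottip* gRNAs. Control replicate 3 was inside the range of the arrays labelled *Hoxa13* gRNAs, and the difference of 0.87 (SE 0.466, adjusted p 0.482) was −0.12 in the authors' values.

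Lower glycolysis held the brightest probes of the set. *Aldoa*, which splits fructose 1,6-bisphosphate, had levels of 6.47, 6.04 and 5.78 on the arrays labelled *Hoxa13* gRNAs, 5.76, 5.98, 5.48 and 4.67 with *Hottip* gRNAs and 4.78, 5.06 and 5.64 in the control. The arrays labelled *Hoxa13* gRNAs lay above the control without overlap, by 0.94 (SE 0.439, adjusted p 0.46), but the difference was −0.03 in the authors' values. Its spot was saturated on 2, 3 and 2 arrays of the 3 groups in that order, so both values rest mostly on saturated spots. *Eno1*, the main enolase of proliferating cells, read 7.46, 6.63 and 5.90, then 5.83, 6.45, 5.26 and 4.66, and in the control 4.69, 4.92 and 6.17. Control replicate 3 exceeded the lowest array labelled *Hoxa13* gRNAs. The *Eno1* difference of 1.41 (SE 0.595, adjusted p 0.447) was 0.18 in the authors' values and above 0 under all 7 scalings, with saturated spots on 2 arrays labelled *Hoxa13* gRNAs and 2 with *Hottip* gRNAs.

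*Gapdh*, to which expression in RT-qPCR is often normalized, was saturated at its brightest probe on 2 of 3 arrays labelled *Hoxa13* gRNAs, 4 of 4 with *Hottip* gRNAs and 3 of 3 control arrays, so no difference is given for it. Its levels there were 7.75, 5.76 and 5.94, then 5.53, 5.79, 5.52 and 4.67, and 4.48, 5.03 and 5.59 in the control. A *Gapdh* probe with no saturated spot, picked after its values were seen, read 6.75, 5.72 and 5.83 on the arrays labelled *Hoxa13* gRNAs, 5.29, 5.77, 5.29 and 4.66 with *Hottip* gRNAs and 4.61, 5.01 and 5.68 in the control. The arrays labelled *Hoxa13* gRNAs were all above the control at this probe, by 1.00 (SE 0.456, adjusted p 0.458), whereas its authors' values gave −0.11. All 7 *Gapdh* probes gave positive differences in scaled signal, but they share the scaling of each array. All except the unsaturated probe had saturated spots on some arrays, and in the authors' values the probes differed in sign.

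*Ldha*, which reduces pyruvate to lactate, had the largest positive difference of the 38 genes in this comparison in scaled signal, though not in the authors' values. Its levels were 7.21, 6.16 and 5.67 on the arrays labelled *Hoxa13* gRNAs, 5.24, 5.96, 4.92 and 4.34 with *Hottip* gRNAs and 4.27, 4.54 and 5.52 in the control. The arrays labelled *Hoxa13* gRNAs were above every control array, the lowest of them by less than the spread within either group. The difference was 1.57 (SE 0.555, adjusted p 0.447; two-sided exact permutation p 0.1, the smallest that 3 against 3 arrays allow). In the authors' values it was 0.18 (SE 0.222, adjusted p 0.816), again without overlap, and the sign was positive under all 7 scalings. These values are of the brightest *Ldha* probe. Its other probes were also higher in scaled signal, but overlapped with the control (means 6.19 against 5.39, and 5.70 against 4.35). Their means in the authors' values were 15.72 against 15.73 in the control, and 15.70 against 15.54. *Ldhb*, which favours the reverse reaction, and the lactate exporter *Slc16a3* were also non-overlapping and above the control in scaled signal (0.77 and 0.62), while the authors' values gave −0.50 and 0.33. A second *Slc16a3* probe had means of 3.75 against 3.18 in the control in scaled signal, but 12.61 against 13.05 in the authors' values.

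Of the 9 genes at an unadjusted p under 0.05 in limma (7.98% of all tested probes), 5 were citric acid cycle enzymes. All 5 had a mean level over 3, and the share among equally bright probes was not computed. *Cs*, citrate synthase, which starts the cycle, had levels of 5.13 and 4.81 on replicates 1 and 2 of the arrays labelled *Hoxa13* gRNAs, 4.09, 4.46 and 3.80 on *Hottip* gRNA replicates 2, 3 and 4, and 3.67, 3.90 and 3.88 in the control, with the other 2 spots left out. The difference of 1.16 (SE 0.416, adjusted p 0.447) was −0.03 in the authors' values. *Idh2*, the mitochondrial NADP-dependent isocitrate dehydrogenase, read 4.62, 4.70 and 4.96 against 3.59 and 3.94 on control replicates 1 and 2, with *Hottip* gRNA replicates 1, 3 and 4 at 4.48, 4.52 and 3.84. Its difference was 1.00 (SE 0.428, adjusted p 0.454) and −0.10 in the authors' values. Both genes were without overlap on the arrays that measured them.

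*Sdhb*, the iron-sulphur subunit of succinate dehydrogenase, had levels of 6.40, 5.25 and 4.46 on the arrays labelled *Hoxa13* gRNAs, 4.30, 4.52, 4.65 and 3.95 with *Hottip* gRNAs and 3.49, 3.69 and 4.92 in the control. Control replicate 3 fell within the range of the arrays labelled *Hoxa13* gRNAs, and the difference was 1.34 (SE 0.549, adjusted p 0.447), or 0.14 in the authors' values. A second *Sdhb* probe, well above background on 10 arrays, had means of 4.33 against 3.71 in the control. In the authors' values that probe was lower than the control, at 14.55 against 14.76. *Mdh2*, the mitochondrial malate dehydrogenase that closes the cycle, read 6.23, 5.23 and 5.36, then 5.33, 5.77, 5.01 and 4.28, and 4.11 and 4.38 on control replicates 1 and 2. Its arrays did not overlap with the control, by 1.36 (SE 0.531, adjusted p 0.447), and the authors' values gave −0.10. In the opposite direction *Idh3a*, a subunit of the NAD-dependent isocitrate dehydrogenase, was below the control without overlap on both scales, in scaled signal on the 2 control arrays that measured it (−0.37, adjusted p 0.714, and −1.13, adjusted p 0.642 in limma).

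*Suclg1*, the alpha subunit of succinyl-CoA ligase, was above the control without overlap on both scales. It read 5.21 and 5.71 on replicates 1 and 2 of the arrays labelled *Hoxa13* gRNAs, 4.17, 4.01, 4.62 and 2.98 with *Hottip* gRNAs, and 3.85 and 4.07 on control replicates 1 and 2, the third spot of both 3-array groups being left out. The difference was 1.49 (SE 0.594, adjusted p 0.447). The authors' values, with all spots kept, were 15.13, 13.94 and 15.15 on the arrays labelled *Hoxa13* gRNAs and 11.89, 12.55 and 13.38 in the control, a difference of 2.14 (SE 0.636, adjusted p 0.56). Its sign was the same under all 7 scalings (0.37 to 2.77). The trend correction multiplied its signal by 4.81 and 4.04 on control replicates 1 and 2 but by 0.724 and 3.71 on replicates 1 and 2 of the arrays labelled *Hoxa13* gRNAs. Before that correction, an alternative added after the data were seen, the levels were 5.76 and 3.94 against 1.78 and 2.37, and *Suclg1* was called (2.77, adjusted p 0.00574 in limma), the sole call among the 38 genes in any comparison or setting. That call rests on 2 arrays a group, with the 2 arrays labelled *Hoxa13* gRNAs on a slide of their own, so slide and group cannot be told apart for it.

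**Figure D2:**
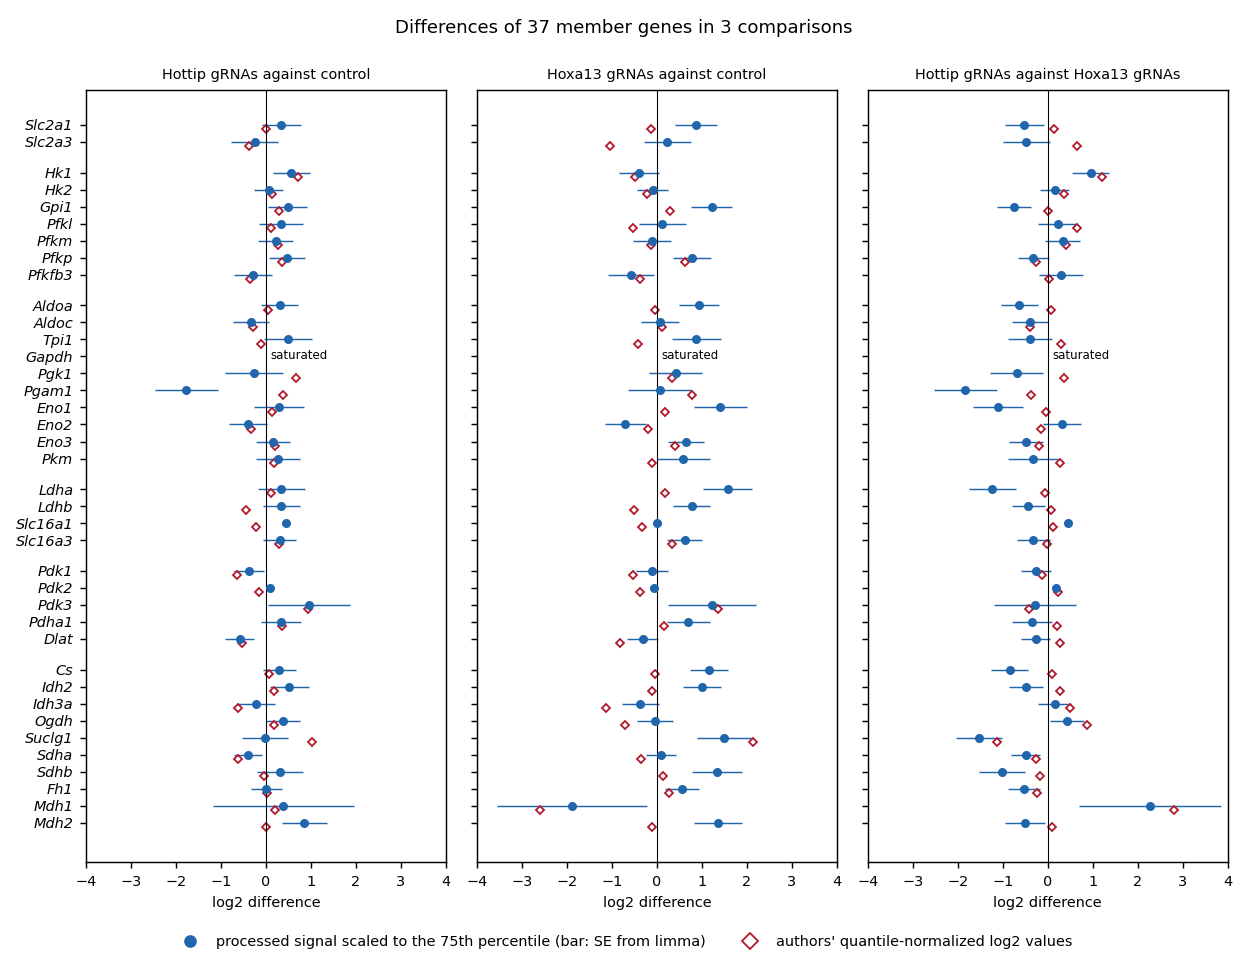
Log2 differences of 37 genes by pathway step in the 3 comparisons: blue points with limma standard errors are scaled processed signal, red diamonds the authors' quantile-normalized log2 values, and *Gapdh* is left out because its probe was saturated. Against the control, blue points of the arrays labelled *Hoxa13* gRNAs lie mostly right of 0 and the red diamonds do not (medians 0.57 and −0.11 over all 38 genes, *Gapdh* included).

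The number of genes without overlap between the groups moved with brightness. The arrays labelled *Hoxa13* gRNAs lay above every control array that measured the gene for 12 of the 38 genes (*Gpi1*, *Pfkp*, *Aldoa*, *Tpi1*, *Gapdh*, *Ldha*, *Ldhb*, *Slc16a3*, *Cs*, *Idh2*, *Suclg1* and *Mdh2*) and below for 1 (*Idh3a*), where 16.7% and 7.14% of all tested probes did so. For 7 of the 12 (*Gpi1*, *Pfkp*, *Tpi1*, *Ldhb*, *Idh2*, *Suclg1* and *Mdh2*) these were control replicates 1 and 2 only, the spot on replicate 3 being left out. The members are bright probes, and 24 of the 38 had a mean level over 3. Of those 24, 11 were above the control without overlap, and among all tested probes with a mean level over 3 the share was 34.6%. The median difference of the 24 bright genes was 0.82 against 0.63 over all bright probes, and that of the other 14 genes was −0.09. In the authors' values the bright genes had a median of −0.08 against −0.02 for all bright probes, and 3 of the 38 genes were without overlap above the control and 5 below (4.12% and 6.34% of probes). These 2 counts were 7 and 8 without replicate 3 of the arrays labelled *Hoxa13* gRNAs and 6 and 9 without control replicate 3. Fewer arrays make a lack of overlap more frequent at any probe. The share of all probes with an array left out was not computed, so these counts have no share beside them. The higher scaled levels were thus shared by bright probes in general, and whether these pathways add to that was not tested. The 75th percentile used for scaling was also lower on every array labelled *Hoxa13* gRNAs (586 to 1086) than in the control (1096 to 2380). Before scaling and trend correction the *Ldha* spot read 46586, 49661 and 55491 on those arrays and 45651, 48667 and 44317 in the control. The part of the scaling in these differences was not tested. The authors' values end at 16.00 on all 10 arrays, and *Gapdh*, *Aldoa* and *Eno1* lie between 15.68 and 16.00, which leaves little room for a difference there.

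**Figure D3:**
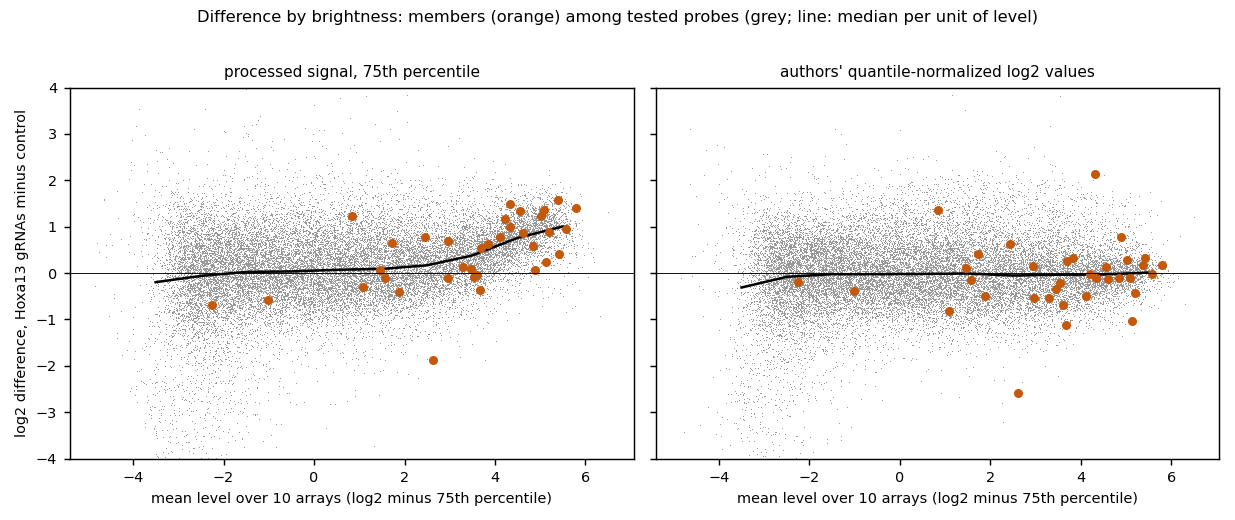
Difference of the arrays labelled *Hoxa13* gRNAs minus control against the probe's mean level over 10 arrays, for tested probes (grey, line for the median per unit of level) and the members (orange, *Gapdh* left out), in scaled signal on the left and the authors' values on the right; the vertical axis ends at ±4. The grey median climbs with brightness on the left, to 0.63 over all probes above a level of 3, and stays near 0 on the right (−0.02).

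The count of 9 genes at an unadjusted p under 0.05 was 1 without replicate 1 of the arrays labelled *Hoxa13* gRNAs, 0 without control replicate 1, 1 without control replicate 2 and 12 without control replicate 3. On the slide that holds all 3 groups, which keeps 1 array labelled *Hoxa13* gRNAs, it was 0 and the median difference 0.30.

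The second comparison set *Hottip* gRNAs against the control. The median difference over the 38 genes was 0.30 in scaled signal, against −0.03 over all tested probes, and 0.08 in the authors' values, against −0.05. Above 0 lay 27 genes in scaled signal (47.8% of probes) and 24 in the authors' values (45% of probes). Of the 24 bright genes 18 were above 0 in scaled signal, against 69.6% of all bright probes, with a median of 0.31 against 0.15. None of the 36 tested genes was called on either scale, where 0.718% of probes were called in scaled signal and 0.363% in the authors' values, and the smallest adjusted p was 0.522 and 0.57. At an unadjusted p under 0.05, 0 genes were above and 1 was below the control in scaled signal (3.76% and 4.29% of probes), and 0 and 1 in the authors' values (3.84% and 4.91%). *Hottip* gRNA arrays were above the control without overlap for 0 genes and below for 1, against 5.94% and 7.77% of probes, and without *Hottip* gRNA replicate 4 the first count was 8. In the authors' values 2 genes were above and 5 below without overlap (5.72% and 8.59% of probes), which became 5 and 6 without control replicate 2 and 4 and 10 without control replicate 3. The shares of probes given here are for all arrays, and none was computed for the counts with an array left out.

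*Dlat*, the acetyltransferase core of the pyruvate dehydrogenase complex, was the gene below the control without overlap. It read 1.04, 0.68, 0.59 and 1.00 with *Hottip* gRNAs and 1.16, 1.35 and 1.69 in the control. The difference of −0.58 (SE 0.323) had an adjusted p of 0.781 in limma and a two-sided exact permutation p of 0.0286, the smallest that 4 against 3 arrays allow. Any gene without overlap on these arrays gets that permutation p, so it adds nothing to the lack of overlap. The difference was −0.54 in the authors' values, also without overlap, and negative under all 7 scalings. *Dlat* was lower than the control on the arrays labelled *Hoxa13* gRNAs as well, under all 7 scalings (−0.99 to −0.23). There it was −0.31 in scaled signal, with overlap, and −0.82 in the authors' values, without overlap. *Pdk1*, which phosphorylates and inhibits the same complex, was −0.38 and −0.65 with *Hottip* gRNAs on the 2 scales (adjusted p 0.955 and 0.57). *Mdh2*, with values given above, had the largest positive difference in the citric acid cycle (0.85, SE 0.504, adjusted p 0.819), and it was 0.00 in the authors' values. Apart from *Pgam1*, the remaining genes lay between −0.40 for *Sdha*, the flavoprotein subunit of succinate dehydrogenase, and 0.95 for *Pdk3* in scaled signal (adjusted p 0.937 and 0.972). The *Pdk3* difference again rests on control replicate 3, which read −2.78 where the highest control array read 1.76.

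*Pgam1*, which converts 3-phosphoglycerate to 2-phosphoglycerate, gave the largest difference of this comparison in scaled signal, though not in the authors' values. Its levels were 5.41, 2.31 and 3.36 on *Hottip* gRNA replicates 2, 3 and 4, 5.40, 5.71 and 5.27 in the control and 5.62, 6.06 and 4.90 on the arrays labelled *Hoxa13* gRNAs. The low arrays were *Hottip* gRNA replicates 3 and 4, and replicate 2 lay within the control range. The difference was −1.77 (SE 0.702, adjusted p 0.522), but 0.39 in the authors' values, where the control arrays read 12.48, 12.59 and 15.56 and the *Hottip* gRNA arrays 15.45, 13.73, 12.45 and 14.12. The trend correction moved with this result: it multiplied the *Pgam1* signal by 9.35, 11.7 and 0.81 on the control arrays and by 3.86 on *Hottip* gRNA replicate 2, and left replicates 3 and 4, which were not corrected, as they were. Before the correction the control levels were 2.37, 2.48 and 5.77 and the difference was −0.39.

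**Figure D4:**
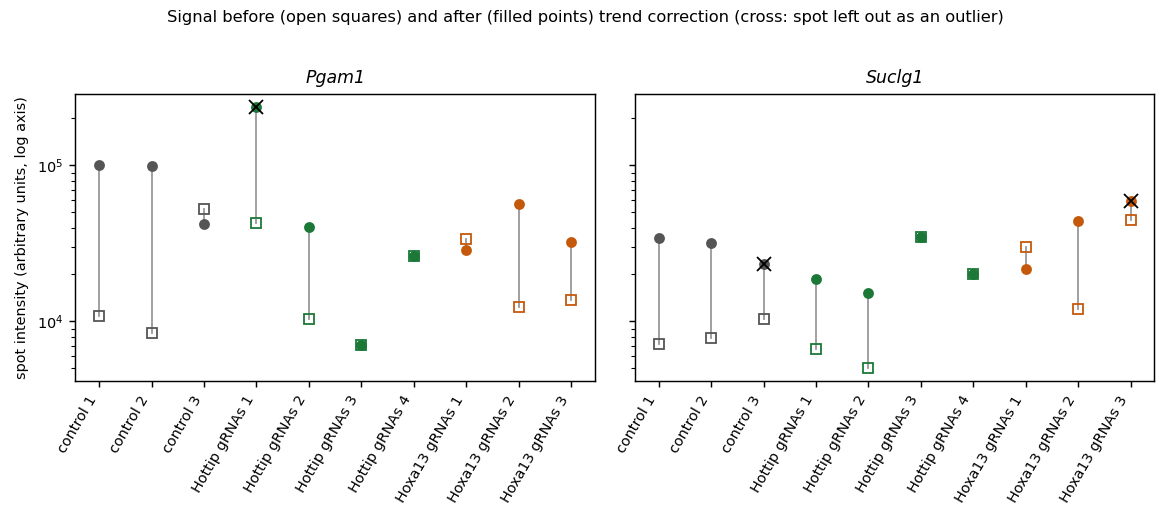
Spot intensity (log axis, arbitrary units) of *Pgam1* and *Suclg1* on each array before (open squares) and after (filled points) the trend correction, with crosses on spots left out as outliers. Control replicates 1 and 2 move upward most for *Pgam1* (9.35 and 11.7 times), and *Hottip* gRNA replicates 3 and 4 do not move.

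By role the scaled medians for *Hottip* gRNAs minus control ran from 0.05 for glucose transport to 0.34 for lactate genes, and in the authors' values from −0.19 for glucose transport to 0.26 for upper glycolysis. The unsaturated *Gapdh* probe differed by 0.15 (SE 0.427, adjusted p 0.999) and by 0.08 in the authors' values, and it went to −0.05 after cyclic loess. *Ldha* differed by 0.34 (SE 0.52, adjusted p 0.999) at its brightest probe, by −0.66 at a second tested probe, which was saturated on 1 control array, and by 0.48 at the remaining probe, with 0.11, −0.75 and 0.04 in the authors' values. Its probes thus disagreed in sign.

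The third comparison set the 2 targeted groups against each other. It does not use the control arrays, but the doubt about the *Hoxa13* gRNA label remains, and with it whether VP160 acted in those cells. *Hottip* gRNA arrays had a median difference of −0.39 from the arrays labelled *Hoxa13* gRNAs, against −0.26 over all tested probes, with 27 genes below and 11 above 0 (34.3% of probes above 0). In the authors' values it was 0.09 against −0.02, with 24 genes above 0 (48.3% of probes), so the direction depended on the scale. No gene was called on either scale, with 0.381% and 0.306% of probes called and smallest adjusted p-values of 0.323 and 0.355. At an unadjusted p under 0.05, 1 gene was above and 3 were below in scaled signal (4.06% and 7.87% of probes), and 2 and 0 in the authors' values (6.15% and 5.45%). Both control comparisons share their control arrays, and this one shares its arrays with each of them.

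*Hk1*, the hexokinase bound to mitochondria in many tissues, was the gene above 0. It read 1.84, 1.90, 2.82 and 2.75 with *Hottip* gRNAs, 0.70, 1.84 and 1.57 on the arrays labelled *Hoxa13* gRNAs and 1.97, 1.60 and 1.74 in the control. *Hottip* gRNA replicates 3 and 4 were above all other arrays, while replicates 1 and 2 lay at or just above the highest array labelled *Hoxa13* gRNAs. The difference was 0.96 (SE 0.411, adjusted p 0.398), 1.21 in the authors' values (SE 0.46, adjusted p 0.355), and positive under all 7 scalings (0.96 to 1.27). A second *Hk1* probe, above background on 9 arrays, gave 0.46 for the same difference (0.32 in the authors' values). Against the control this probe gave 0.65 for the arrays labelled *Hoxa13* gRNAs, where the first gave −0.40, and 1.11 for *Hottip* gRNAs, without overlap, where the first gave 0.56.

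The 3 genes below 0 were *Suclg1*, *Pgam1* and *Ldha*. *Suclg1* gave −1.52 (SE 0.514, adjusted p 0.323) without overlap, and −1.12 in the authors' values, with the highest *Hottip* gRNA array at 4.62 and the lowest array labelled *Hoxa13* gRNAs at 5.21. *Pgam1* gave −1.83 (SE 0.702, adjusted p 0.359) and −0.37, with *Hottip* gRNA replicates 3 and 4 again the low arrays. *Ldha* gave −1.23 (SE 0.52, adjusted p 0.393) and −0.07. *Hottip* gRNA arrays were below without overlap for 5 genes (*Gpi1*, *Cs*, *Idh2*, *Suclg1* and *Sdha*) and above for 0, against 12.8% and 4.98% of probes, and 4 of the 5 belong to the citric acid cycle. All 5 were among the 24 bright genes, where 22.8% of all bright probes were below without overlap. The count below was 17 without replicate 3 of the arrays labelled *Hoxa13* gRNAs, 12 without *Hottip* gRNA replicate 2 and 10 without replicate 3. With fewer arrays any probe is more often without overlap. No share of all probes was computed for these counts, and the shares above are for all arrays. Outside these genes the differences ran from −1.11 for *Eno1* to 2.27 for *Mdh1* (adjusted p 0.442 and 0.53), the latter again through its 1 low array, and the unsaturated *Gapdh* probe gave −0.84 (SE 0.427, adjusted p 0.444) and 0.20 in the authors' values. In the authors' values 3 genes were above without overlap (*Slc2a3*, the triose isomerase gene *Tpi1* and *Ogdh*, a subunit of the 2-oxoglutarate dehydrogenase complex) and 0 below (4.84% and 5.27% of probes).

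**Figure D5:**
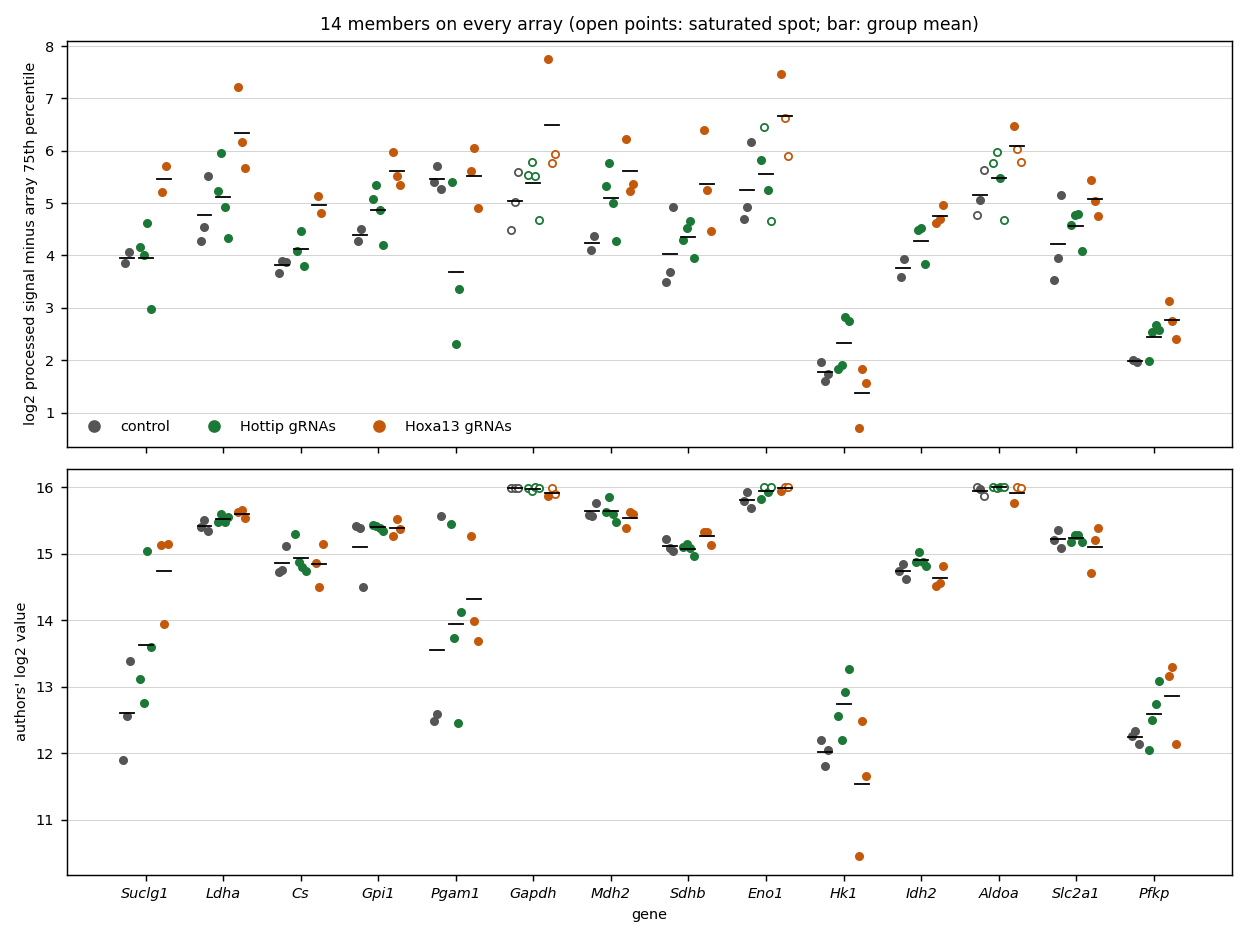
The 14 genes described in full on every array, as scaled levels (upper panel) and the authors' log2 values (lower panel), with group means as bars and saturated spots as open points. In the upper panel the arrays labelled *Hoxa13* gRNAs sit above the control for *Ldha* (5.67 to 7.21) and *Suclg1* (5.21 and 5.71), as they do in the lower panel, where all *Ldha* arrays lie within 15.34 to 15.65.

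The 34 other genes of the same pathways gave no calls either. None of the 27 tested was called in any comparison on either scale. At an unadjusted p under 0.05 there were 1 above and 1 below for *Hottip* gRNAs, 3 and 0 for the arrays labelled *Hoxa13* gRNAs and 0 and 1 between the targeted groups, in scaled signal. Their scaled medians were 0.10, 0.16 and −0.24 in that order, and 0.05, −0.07 and −0.02 in the authors' values. *Idh3b*, a further subunit of the NAD-dependent isocitrate dehydrogenase, gave 1.28 (adjusted p 0.53 in limma) with *Hottip* gRNAs and 1.62 (adjusted p 0.447) on the arrays labelled *Hoxa13* gRNAs against the same 3 control arrays. Those control arrays had an SD of 1.17, against 0.125 and 0.33 in the other groups, and the authors' values gave 1.34 and 0.76. *Slc2a4* gave −0.98 with *Hottip* gRNAs against the control (adjusted p 0.427 in limma) and −1.13 against the arrays labelled *Hoxa13* gRNAs (adjusted p 0.268). Its authors' values were −1 and −1.1, and the arrays labelled *Hoxa13* gRNAs differed from the control by 0.15. The 14 oxygen-responsive genes, targets of hypoxia-inducible factors such as *Bnip3*, a mitophagy receptor, and *P4ha2*, a collagen prolyl hydroxylase subunit, were detected on all arrays in 9 cases. None of the 12 tested was called, with 1, 2 and 0 at an unadjusted p under 0.05 in scaled signal, all above 0, against 3.76%, 7.98% and 4.06% of probes, and 1, 0 and 1 in the authors' values. Their medians were 0.22, 0.18 and −0.18 in scaled signal and 0.10, 0.04 and 0.02 in the authors' values. The largest of them was *P4ha2* with *Hottip* gRNAs (1.70, adjusted p 0.213 in limma, and 1.84 in the authors' values).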

How the data were processed

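Processed files of 10 one-colour arrays (62976 spots, of which 59305 are not controls) and a table of the authors' log2 values were used. Per the file headers, spot intensity was extracted and processed with Feature Extraction 11.5.1.1 (background subtraction and, on 8 of 10 arrays, multiplicative detrending), in a design annotated to mm9. The deposited log2 values were made by the authors by quantile normalization. Their scale and base are not stated, and were inferred from the values: on each array their ranks equalled those of median signal minus local background (rank correlation 1), so they were taken as log2 before detrending. The processing notes name limma without a version.

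Levels were computed for each spot as log2(processed signal) minus log2 of the array's 75th percentile. That percentile was taken over all spots that are not controls, outlier spots included. Outlier and control spots were then dropped and the spots of a probe averaged. The 22839 probes that the scanner software placed well above background on 3 or more arrays were tested with limma 3.58.1 in R 4.3.3 (a mean per group over all 10 arrays, variance prior from all probes, Benjamini-Hochberg), called at an adjusted p under 0.05, and the authors' values likewise with all spots kept. A difference that the arrays with a value could not give was left out. Exact permutation tests were two-sided, over 35 splits of 4 against 3 arrays or 20 of 3 against 3, which cannot go below 0.0286 and 0.1. The brightest probe stood for a gene. Values on every array were given for called genes, filled up to 14 by the smallest limma p in scaled signal, and for *Gapdh*. The number of arrays limits the precision, and p-values measure the spread between these samples only. The scripts were tested on simulated data.

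The 38 genes, the other lists and the tests were chosen with earlier results of these data known. Scaling, background correction, filter, outlier spots, probe rule, slide, variance prior, samples in the fit, replicate block and each array left out were varied, as were 2 alternatives chosen after seeing the data: the signal before detrending, and a prior from the tested probes only. Gene symbols and promoter windows come from RefSeq (GRCm38.p6), and no coordinates were taken between builds. A few genes are counted in the lists but not reported here by name.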

Additional observations from a re-analysis of the deposited data

Results flagged for a closer look

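In groups of at least 4 arrays, here *Hottip* gRNAs, the highest or lowest array was set against the others for the 30 genes measured on all 4. In 3 of the 30, 1 array stood past the limit that chance passes in about 1 of 20 such groups, and each time it was *Hottip* gRNA replicate 3 as the highest. For *Pdk1*, an inhibitor of pyruvate dehydrogenase, the gap to the nearest array was 0.836 of the group's range (3.27 against 2.66), and the authors' value of that array, 13.34, lay within the other 3 (13.19 to 13.45). For *Fh1*, fumarate hydratase, the gap was 0.893 of the range (3.89 against 3.45), with an authors' value of 14.06 within 13.29 to 14.22. For *Mdh1* it was also 0.893 (3.95 against 3.29), and here the authors' value of 14.13 lay above the others (13.81 to 13.88). Replicate 3 is 1 of the 2 arrays without trend correction, and the part of that in these gaps was not tested.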

How the results depend on the processing

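No member was called in any comparison under the 26 alternatives, except *Suclg1* in the arrays labelled *Hoxa13* gRNAs against control on the signal before trend correction (1 call, 2.77, adjusted p 0.00574 in limma; 0.837 at most elsewhere). The median of that comparison (0.57) was −0.04 after quantile normalization, −0.08 after cyclic loess, −0.11 in the authors' values, 0.43 with normexp, 0.30 with the slide as a block and 0.30 on the slide with all 3 groups, the last 2 without the genes that lack a value for that group there, and 0.37 to 0.62 with 1 array left out. That of *Hottip* gRNAs against control (0.30) was 0.49 with median centring, 0.10 after cyclic loess, 0.14 with normexp, 0.08 in the authors' values and 0.09 to 0.42 with 1 array left out. Between the targeted groups (−0.39) it was 0.11 after quantile normalization, −0.14 with median centring, 0.01 after cyclic loess and 0.09 in the authors' values. Median centring moved the median of all probes by over 0.1. Reversed signs were seen for *Gpi1* (−0.05 after quantile normalization) and, in the authors' values, for *Cs* (−0.03), *Idh2* (−0.10), *Mdh2* (−0.10) and *Gapdh* (−0.11) on the arrays labelled *Hoxa13* gRNAs, for *Pgam1* with *Hottip* gRNAs (0.39), and for *Gapdh* between the targeted groups (0.20, and 0.28 after quantile normalization). *Gapdh* with *Hottip* gRNAs was −0.05 after cyclic loess and −0.09 to 0.45 with 1 array left out, below 0 without *Hottip* gRNA replicate 2 or control replicate 1. The causes were not tested. Calls over all probes (164, 40 and 87) were 5, 0 and 0 with the filter on all 10 arrays and 357, 592 and 310 before trend correction. The replicate numbers do not pair the samples (correlations of deviations −0.233 to 0.141). With the replicate block 0 members were called, the medians were 0.43, 0.57 and −0.24, and calls over all probes were 14, 2 and 8.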
